A study of Arabidopsis thaliana with 8 samples.

Results

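*TCH4*, *XTH7*, *XTH15* and *XTH19* encode xyloglucan endotransglucosylases/hydrolases, the XTH enzymes of the plant cell wall. Their transcript levels were followed in inflorescences of *Arabidopsis thaliana* that carried either 1 of 3 *TCP* transgenes or an empty vector. These 4 of 22746 probe sets were chosen by their levels in the 4 groups on these same arrays, as XTH genes that stood on the study's lists of changed transcripts. Their changes against the empty vector are therefore described here with their errors and no p-value, and where they are counted against the study's kind of limits, the count only describes how they were chosen. *XTH19* (AT4G30290) is named by the annotation of the array platform, whereas *TCH4* (AT5G57560), *XTH7* (AT4G37800) and *XTH15* (AT4G14130) are named only by the study's lists.

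The groups were 35S::CYC, which expressed *CYCLOIDEA* from *Antirrhinum majus*, 35S::IaTCP1, which expressed *IaTCP1* from *Iberis amara*, 35S::TCP1, which expressed *TCP1* of *Arabidopsis* itself, and plants with the empty pBAR vector. All plants were T2 progeny of the cultivar Columbia. Every transgene stood in the pBAR vector behind the CaMV 35S promoter, which is active in most tissues, so that expression was not limited to petals. Plants had been kept for their petal size, which was larger with 35S::CYC and smaller with the other transgenes. RNA came from secondary inflorescences whose flowers had not yet opened. Each group was 1 line, from which 2 technical RNA samples were hybridized to Affymetrix ATH1 arrays, so that all errors and p-values measure how far 2 RNA samples of a line differ and say nothing of other lines or plants. The line and its transgene cannot be told apart.

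The 8 arrays resembled each other closely, with medians between 6.48 and 6.56 on the log2 scale and a correlation of replicates between 0.997 and 0.998. Precision is limited by how few they are. Of the floral identity genes listed to check the tissue, only *AP1* (1 of 10, through the study's lists) has a named probe set. It was detected brightly in all groups, at 9.74 ± 0.07 in 35S::CYC, 10.52 ± 0.06 in 35S::IaTCP1, 10.70 ± 0.07 in 35S::TCP1 and 11.14 ± 0.03 with the empty vector (SD, n = 2 each). Its level was not even, with a difference of -1.40 from the empty vector in 35S::CYC (standard error 0.09).

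Xyloglucan is a glucan with short side chains that coats and connects cellulose microfibrils in the primary wall. XTH enzymes cut a xyloglucan chain and either rejoin the end to another chain or, in a few members, hydrolyse it, and are thought to remodel the wall while a cell grows. *TCH4* owes its name to its rapid induction by touch and also responds to brassinosteroid, auxin, darkness and temperature. *XTH15* is known from shade responses of seedlings and *XTH19* from growing root and hypocotyl cells, while the role of *XTH7* is less well known.

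*TCH4* showed the widest span of the 4 genes. Its log2 intensity was 10.32 and 10.41 in 35S::CYC, 6.81 and 6.73 in 35S::IaTCP1, 5.70 and 5.63 in 35S::TCP1, and 5.74 and 5.82 with the empty vector. The 35S::CYC arrays thus lay far above all others, the 35S::IaTCP1 arrays lay clearly apart in between, and the remaining groups were almost level. The 35S::CYC mean exceeded that of the empty vector by 4.58 (standard error 0.09), a 24.0-fold difference. RNA of whole inflorescences was measured. For each of the 4 genes, a change in the number of cells of a type and a change in RNA per cell cannot be told apart. In 35S::IaTCP1 the difference was 0.99 (standard error 0.09). The small difference of -0.12 (standard error 0.09) in 35S::TCP1 rested on arrays that came within 0.05 of the controls, no more than the SD of either group. The order of levels was therefore 35S::CYC, 35S::IaTCP1 and then 35S::TCP1 together with the empty vector. Set directly against each other, 35S::CYC lay 3.59 above 35S::IaTCP1 and 4.70 above 35S::TCP1 on the log2 scale.

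*XTH15* formed an even staircase. It reached 9.30 and 9.26 in 35S::CYC, 8.83 and 8.94 in 35S::IaTCP1, and 8.41 and 8.40 in 35S::TCP1, against 7.87 and 7.90 with the empty vector. No 2 groups overlapped, and every transgene lay above the empty vector. The differences from the empty vector were 1.39, 1.00 and 0.52 in the order 35S::CYC, 35S::IaTCP1 and 35S::TCP1 (standard error 0.08 each). Each step between neighbouring groups, of 0.39, 0.48 and 0.52 on the log2 scale, was several times the largest SD of a group (0.08). With 2.63-fold in 35S::CYC, the difference of *XTH15* was nonetheless much smaller than that of *TCH4*.

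*XTH19* lay above the controls in one line and below them in the others. Its log2 intensity was 7.67 and 7.82 in 35S::CYC, 5.29 and 5.21 in 35S::IaTCP1, and 5.41 and 5.68 in 35S::TCP1, against 6.16 and 6.37 with the empty vector. Both 35S::CYC arrays lay above, and all 4 arrays of the crucifer genes *IaTCP1* and *TCP1* below, both controls. *XTH19* was 2.79-fold higher in 35S::CYC than with the empty vector (difference 1.48, standard error 0.11). It differed by -1.01 in 35S::IaTCP1 and by -0.72 in 35S::TCP1 (standard error 0.11 each). The crucifer genes lay close together, with means that differed by 0.30 (standard error 0.11), 35S::IaTCP1 being the lower. Their arrays did not overlap, but the nearest were only 0.12 apart, less than the SD of 0.19 in 35S::TCP1. Between 35S::CYC and 35S::IaTCP1 the direct difference amounted to 2.50 on the log2 scale, or 5.64-fold.

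*XTH7* was the only one of the 4 genes to be lower under every transgene. It stood at 7.95 and 8.04 in 35S::CYC, 7.56 and 7.59 in 35S::IaTCP1, and 7.21 and 7.65 in 35S::TCP1, against 9.07 and 9.15 with the empty vector. All transgenic arrays lay at least 1.03 below the lower control. The differences from the empty vector were -1.12 in 35S::CYC, -1.54 in 35S::IaTCP1 and -1.68 in 35S::TCP1 (standard error 0.12 each). Levels in 35S::IaTCP1 and 35S::TCP1 overlapped, and the TCP1 replicates were the furthest apart of any group in these genes (SD 0.32). The 35S::CYC arrays lay 0.36 and 0.30 above the nearest arrays of the other transgenes, so that *XTH7* was least reduced in the line in which the other genes were highest.

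**Figure D1:**
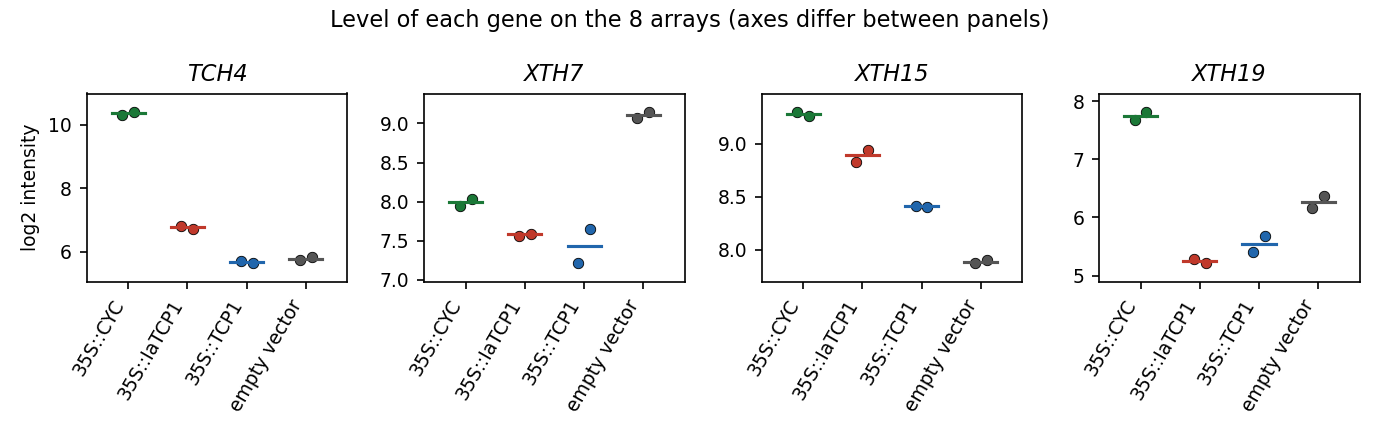
Log2 intensity (y axis) of *TCH4*, *XTH7*, *XTH15* and *XTH19* on each of the 8 arrays, in the groups 35S::CYC, 35S::IaTCP1, 35S::TCP1 and empty vector (x axis); points are arrays, lines are means of 2 arrays, and the axes differ between panels. *TCH4* stands out at 10.32 and 10.41 in 35S::CYC, *XTH15* descends in steps, *XTH19* lies above the controls in 35S::CYC and below them elsewhere, and *XTH7* lies below the controls in every transgenic line.

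As a description of the choice, and not as a test, the 4 genes were counted at limits like those of the study's lists. With a limit of 2-fold together with one of 0.05 on the adjusted p of limma (Benjamini-Hochberg), 3 of the 4 genes were higher and 1 was lower in 35S::CYC, beside 1.53% and 1.55% of all probe sets. In 35S::IaTCP1, 1 was higher and 2 were lower, beside 0.976% and 2.35%, and in 35S::TCP1 none was higher and only *XTH7* was lower, beside 0.659% and 1.25%. Directly between transgenes, *TCH4* and *XTH19* were higher and none was lower in 35S::CYC than in 35S::IaTCP1, beside 1.97% and 0.743%, and likewise than in 35S::TCP1, beside 1.38% and 0.607%. Between 35S::IaTCP1 and 35S::TCP1 only *TCH4* was higher and none was lower, beside 0.299% and 0.343%. Nothing follows from these counts or shares, because levels on these arrays chose the genes. Close to the 2-fold limit, which is 1 on the log2 scale, lay *XTH15* (1.00) and *XTH19* (-1.01) just inside and *TCH4* (0.99) just outside in 35S::IaTCP1. Their side of the limit depended on single arrays. *XTH15* was at 0.99 without the first control array or after another normalization (cyclic loess) and at 0.95 without the second 35S::IaTCP1 array. *XTH19* came to -0.91 without the second control array and to -0.97 without the second 35S::IaTCP1 array, and *TCH4* to 1.03 without either of these arrays. Arrays of different groups failed to overlap in most of these genes, but also in many other probe sets. In 35S::CYC both arrays lay above both controls for 3 genes and below them for 1, as they did for 32.9% and 28.1% of all probe sets. In 35S::IaTCP1 this held for 2 genes above and 2 below, beside 35.6% and 23.4%, and in 35S::TCP1 for 1 above and 3 below, beside 32.4% and 24.7%. The 35S::CYC arrays lay above those of 35S::IaTCP1 for all 4 genes, where 23.7% of all probe sets lay above and 31.6% below, and above those of 35S::TCP1 for all 4, where the shares were 26.3% and 31.1%. Between 35S::IaTCP1 and 35S::TCP1, 2 genes lay above and 1 below, beside 22.3% and 20.9%.

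The patterns of the 4 genes were compared by Pearson's r over the 8 arrays, which mostly reflects the 4 group means. *TCH4* correlated with *XTH15* and with *XTH19* at 0.84 in both cases, although these correlated with each other only at 0.42. *XTH7* ran against *XTH15* (-0.58), had hardly any relation to *TCH4* (-0.10) and correlated weakly with *XTH19* (0.34). No pair of the 4 genes thus followed quite the same course, and the correlations of *XTH7* were lower than those among the other genes.

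Of the 33 XTH genes of *Arabidopsis*, 15 have a named probe set, including the 4 described. Another 9 are named by the platform independently of these results, but they are what remained after the changed *XTH19* had been set apart. The remaining pair, *XTH25* and *XTH30*, is named only because it stood on the study's list for 35S::CYC, and its values in that line are again a description. *XTH25* lies directly beside *TCH4* on chromosome 5. It read 5.39 and 5.34 in 35S::CYC, 4.47 and 4.40 in 35S::IaTCP1, and 4.18 and 4.23 in 35S::TCP1, against 4.30 and 4.21 with the empty vector. Like its neighbour it was highest in 35S::CYC, with a difference of 1.11 from the empty vector (standard error 0.09), and its 35S::IaTCP1 arrays lay only 0.09 above the controls. All 6 arrays outside 35S::CYC lay below the lower quartile of the probe sets, so the size of that difference is uncertain, and *XTH25* was left out where a mean of at least 5 was required. *XTH30* read 7.39 and 7.37 in 35S::CYC, 5.75 and 6.15 in 35S::IaTCP1, and 6.01 and 6.21 in 35S::TCP1, against 6.15 and 6.42 with the empty vector. It differed by 1.09 in 35S::CYC (standard error 0.13), or 0.96 without the first control array, whereas the other groups lay close together.

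None of the 9 other XTH genes passed both the 2-fold minimum and the adjusted p in any of the 3 comparisons with the empty vector. Of all probe sets, 3.08%, 3.32% and 1.91% did for 35S::CYC, 35S::IaTCP1 and 35S::TCP1. This absence was nearly fixed in advance. XTH genes on the study's lists, which used similar limits, had been set apart, among them *XTH19*, which the platform names. Nothing therefore follows from it, and the counts below leave out *XTH19* as well. With an adjusted p of 0.05 alone, 2 of the 9 passed in 35S::CYC, 4 in 35S::IaTCP1 and 3 in 35S::TCP1, beside 20.5%, 20.4% and 15.7% of all probe sets. At an unadjusted p under 0.05 in limma the counts were 2, 6 and 3, beside 31.3%, 32.8% and 29.6%. The median difference of the 9 genes was 0.08, 0.23 and 0.04 in the same order, beside 0.02, 0.05 and 0.03 over all probe sets.

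The exception in size was *XTH27*, also called *EXGT-A3*, a gene of the leaf vasculature. Its log2 intensity was 9.98 and 9.98 in 35S::CYC, 9.41 and 9.30 in 35S::IaTCP1, and 9.03 and 9.01 in 35S::TCP1, against 9.02 and 8.95 with the empty vector. The 35S::CYC arrays were the highest, followed by those of 35S::IaTCP1, and 35S::TCP1 overlapped with the controls, an order like that of *TCH4*. The difference in 35S::CYC was 0.99 (standard error 0.09, adjusted p = 3.69e-06 from limma), just short of the minimum, and 1.03 without the first control array or 1.01 after cyclic loess, where *XTH27* did pass both limits. Against 35S::TCP1 it was 0.96 higher in 35S::CYC (adjusted p = 7.69e-06) and against 35S::IaTCP1 0.63 higher (adjusted p = 1.98e-04).

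*XTH16* had a similar but flatter course. It differed from the empty vector by 0.54 in 35S::CYC (adjusted p = 5.95e-04) and by 0.39 in 35S::IaTCP1 (adjusted p = 0.00625), and by -0.08 in 35S::TCP1 (adjusted p = 0.565, limma). *XTH29* went the other way, with its highest level in 35S::TCP1. There it read 5.07 and 4.88, against 4.07 and 4.09 with the empty vector, a difference of 0.89 (standard error 0.12, adjusted p = 2.74e-04), and it lay 0.76 lower in 35S::CYC than in 35S::TCP1 (adjusted p = 8.36e-04). The signal was dim, below the lower quartile on 5 of the 8 arrays, among them both controls and both 35S::CYC arrays, which leaves the size of these differences uncertain. *XTH33*, whose product is anchored at the plasma membrane, differed by -0.37 in 35S::IaTCP1 and -0.54 in 35S::TCP1 (adjusted p = 0.0147 and 0.00167, limma), but by -0.02 in 35S::CYC (standard error 0.09). Both of its 35S::TCP1 arrays, at 4.47 and 4.46, lay below the lower quartile, so the size of that difference is uncertain. *XTH32* was 0.30 and 0.32 higher with the crucifer genes than with the empty vector (adjusted p = 0.03 and 0.0266), and -0.10 apart in 35S::CYC. All of these values stayed below the 2-fold minimum.

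The remaining *XTH18*, *XTH20*, *XTH21* and *XTH26* are known mainly from roots. They lay below the lower quartile of the probe sets on all 8 arrays, between 3.60 and 4.38, and none of their differences from the empty vector exceeded 0.23. *XTH18* is of interest as the direct neighbour of *XTH19* on chromosome 4 and one of its closest relatives. It read 4.38 and 4.08 in 35S::CYC, 4.16 and 4.38 in 35S::IaTCP1, and 4.25 and 4.13 in 35S::TCP1, against 4.13 and 4.22 with the empty vector. All groups overlapped with the controls, and the differences of 0.06, 0.10 and 0.01 in the order 35S::CYC, 35S::IaTCP1 and 35S::TCP1 (standard error 0.11 each) did not pass the test. Whether the probes of one such relative also bind transcripts of another was not tested, and a signal this dim could hide a change.

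**Figure D2:**
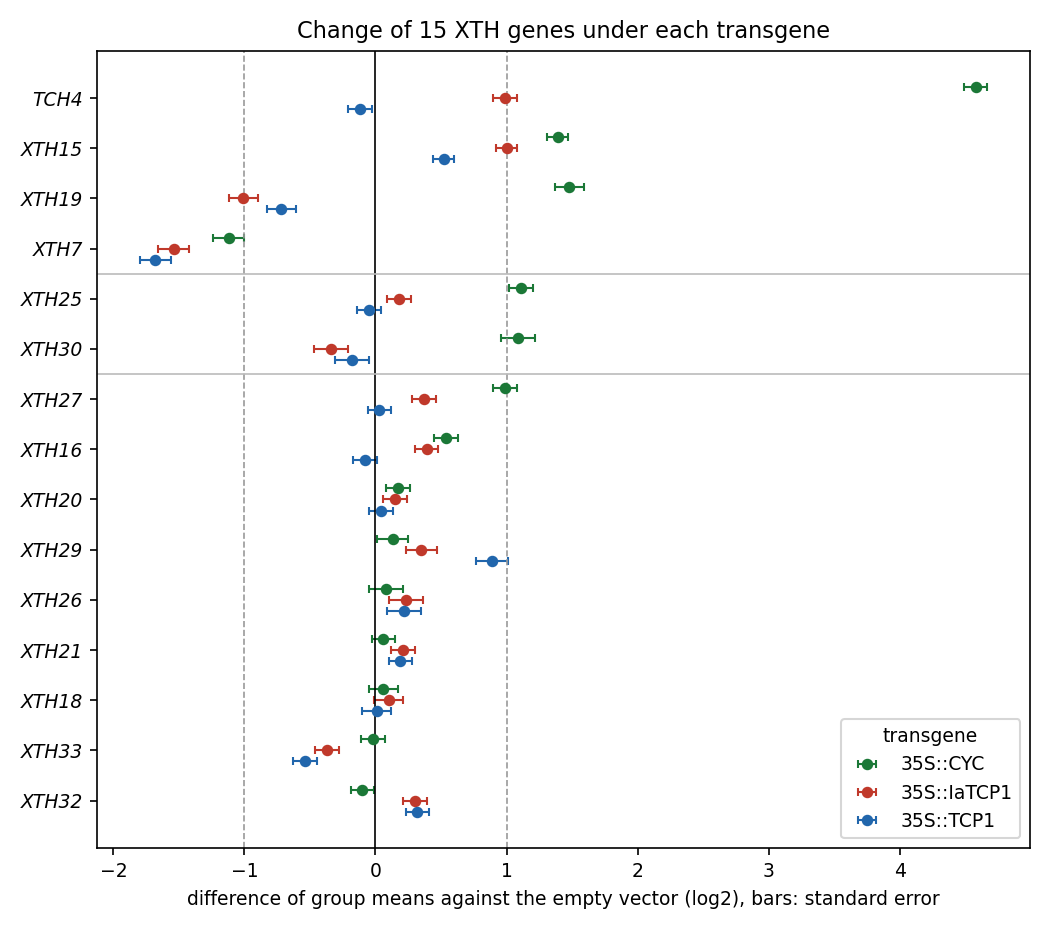
Difference of group means from the empty vector (x axis, log2 scale, 2 arrays per group) for 15 XTH genes (y axis) under 35S::CYC, 35S::IaTCP1 and 35S::TCP1; bars are standard errors from the fit and dashed lines mark the 2-fold minimum. The 4 genes chosen for their change stand at the top, *XTH25* and *XTH30*, named by the study's list, below them, and the 9 others at the bottom, of which *XTH27* comes closest to the minimum with 0.99 in 35S::CYC.

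**Figure D3:**
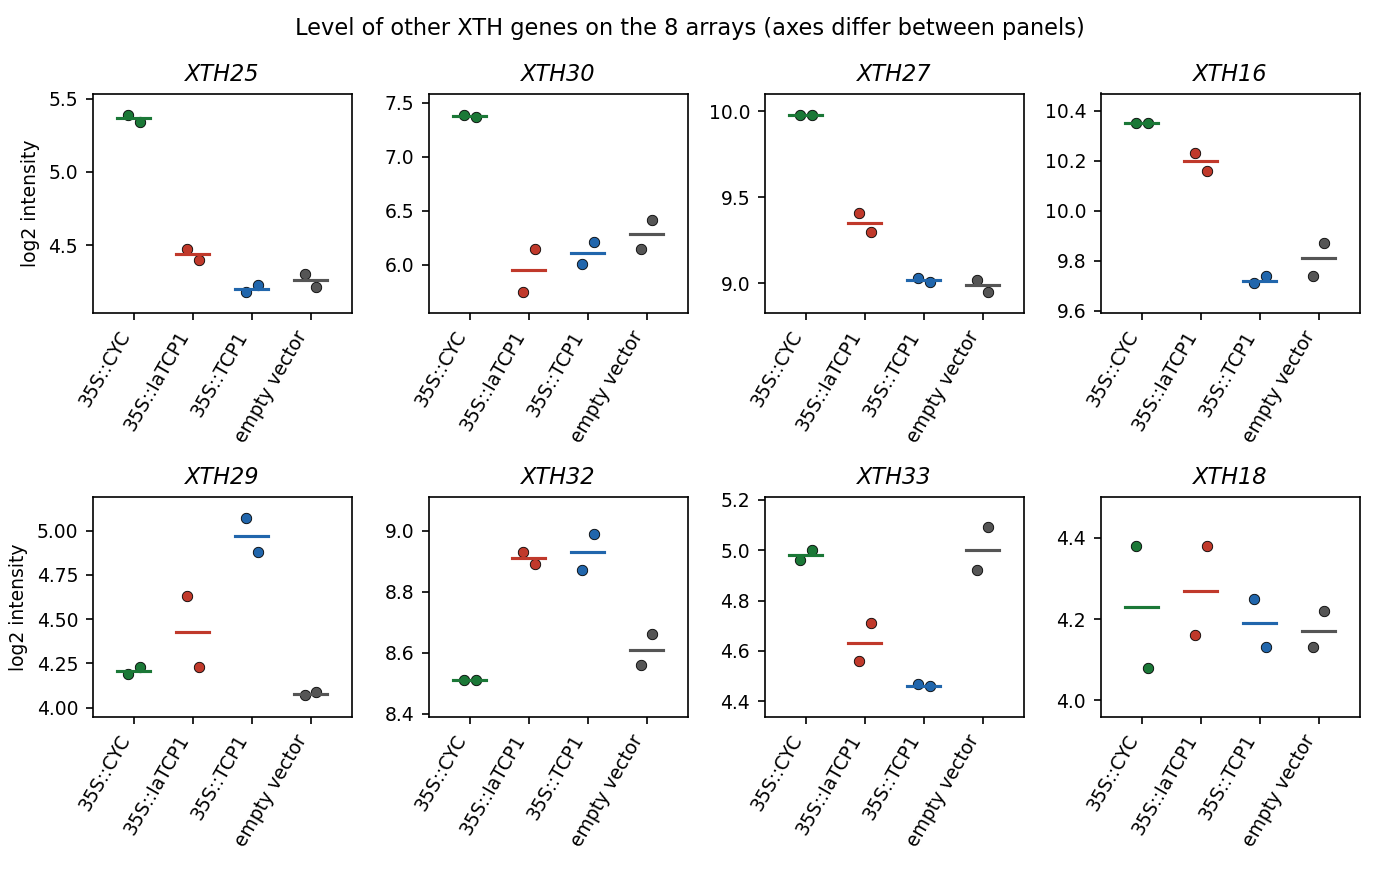
Log2 intensity (y axis) of 8 other XTH genes on each of the 8 arrays by group (x axis); points are arrays, lines are means of 2 arrays, and the axes differ between panels. *XTH25*, *XTH30*, *XTH27* and *XTH16* are highest in 35S::CYC, *XTH29* is highest in 35S::TCP1, and *XTH18* shows overlapping groups.

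Directly between the transgenes, none of the 9 other XTH genes passed both limits in any of the 3 comparisons. Of all probe sets, 2.72% did between 35S::CYC and 35S::IaTCP1, 1.99% between 35S::CYC and 35S::TCP1 and 0.642% between 35S::IaTCP1 and 35S::TCP1. Here too *XTH19*, past both limits in 35S::CYC against each crucifer gene, had been set apart, so nothing follows from this absence. With the adjusted p alone the counts were 3, 5 and 3, beside 17.3%, 17.5% and 6.35%, and the counts at an unadjusted p under 0.05 in limma were again 3, 5 and 3, beside 27.8%, 29.1% and 18.7%.

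Transcripts of genes that make xyloglucan were followed as well, while xyloglucan itself was not measured. Of 17 genes for xyloglucan synthesis and trimming, 5 have a named probe set, all of them *CSLC* genes, whose products build the glucan backbone. None of the 5 passed both limits against the empty vector. With the adjusted p alone 0, 2 and 2 did for 35S::CYC, 35S::IaTCP1 and 35S::TCP1, beside 20.5%, 20.4% and 15.7% of all probe sets. At an unadjusted p under 0.05 in limma 0, 3 and 2 did, beside 31.3%, 32.8% and 29.6%. Their medians were 0.01, -0.23 and -0.18, and the largest difference was that of *CSLC4* in 35S::IaTCP1, with -0.57 (adjusted p = 0.00172). In 35S::CYC, where *TCH4* was highest, the 5 differences lay between -0.19 and 0.27.

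Other genes induced by touch were compared because of the history of *TCH4*. Of 9 listed, *CML38* and *CML23*, both calmodulin-like, are named by the platform, and neither passed both limits, while 1 passed the adjusted p alone in each line, beside 20.5%, 20.4% and 15.7% of all probe sets for 35S::CYC, 35S::IaTCP1 and 35S::TCP1. At an unadjusted p under 0.05 in limma 1, 2 and 1 passed in the same order, beside 31.3%, 32.8% and 29.6%. *CML38* came closest, with a difference of 0.89 in 35S::CYC (adjusted p = 4.87e-05) and 0.29 in 35S::IaTCP1 (adjusted p = 0.0673, limma). *CML23* went the other way, with -0.49 in 35S::IaTCP1 (adjusted p = 0.0085) and -0.48 in 35S::TCP1 (adjusted p = 0.0119), and with -0.12 in 35S::CYC (adjusted p = 0.514, limma). *TCH3* and *WRKY40* are named only by the study's lists and are given as a description. *TCH3*, another calmodulin-like gene found together with *TCH4*, read 8.71 and 8.81 in 35S::CYC, 8.93 and 8.98 in 35S::IaTCP1, and 6.01 and 6.26 in 35S::TCP1, against 5.66 and 5.79 with the empty vector. It was therefore about as high in 35S::IaTCP1 as in 35S::CYC, with -0.20 between them (standard error 0.10), where *TCH4* differed by 3.59. *WRKY40*, a stress-induced transcription factor, differed from the empty vector by 1.04, 0.75 and 0.11 in the order 35S::CYC, 35S::IaTCP1 and 35S::TCP1.

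The transcripts whose pattern was most like that of each gene were sought by Pearson's r over the 8 arrays among 1163 probe sets with 1 named gene whose highest and lowest group means lay at least 1 apart on the log2 scale. Many of these are named only by the study's lists of changed transcripts, which limits the search. Nearest to *TCH4* stood *ERF-1* (r = 0.997), *PAP17*, *ERF104*, *XTH25* and AT3G55840 (r = 0.995 for the last). *ERF-1* and *ERF104* are transcription factors of the ethylene response family, and *PAP17* is an acid phosphatase induced by phosphate shortage. *ERF-1* averaged 7.30 in 35S::CYC, 5.63 in 35S::IaTCP1, 5.18 in 35S::TCP1 and 5.28 with the empty vector, and so also had a small step in 35S::IaTCP1. *XTH25*, the genomic neighbour of *TCH4*, was also among these 5 transcripts (r = 0.996 over 8 arrays). It was named through the study's list for 35S::CYC, and *ERF-1*, *PAP17* and *ERF104* were likewise named only by the study's lists. All 5 transcripts reached the required range only through 35S::CYC, the line in which *TCH4* was highest. Nothing therefore follows from the likeness of any of them. The signal of *XTH25* outside 35S::CYC was also dim, as given above.

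*XTH15* was most like AT4G36500 (r = 0.998), *DIN10*, *MES16*, AT5G23820 and *RMA2*. *DIN10*, a gene induced by darkness and sugar starvation, averaged 8.67 in 35S::CYC, 8.37 in 35S::IaTCP1, 7.83 in 35S::TCP1 and 7.28 with the empty vector, the same descending order. *XTH19* was most like AT3G15280 (r = 0.996), *GILT*, the expansin-like gene *EXLA1*, *LEA18* and AT3G14280. *EXLA1* averaged 8.59 in 35S::CYC, 7.14 in 35S::IaTCP1, 7.31 in 35S::TCP1 and 7.85 with the empty vector, and hence also lay on either side of the controls. *XTH7* was most like *NUDT21* (r = 0.994), the expansin-like gene *EXLB1*, AT1G23240, *ESM1*, which acts in glucosinolate breakdown, and *IRT1*, the iron transporter of roots. *EXLB1* averaged 5.27 in 35S::CYC, 4.67 in 35S::IaTCP1, 4.68 in 35S::TCP1 and 6.43 with the empty vector. The transcripts most like *XTH19* reached the required range only through 35S::CYC, and most of those like *XTH7* only through the empty vector. The likeness is a description of these 4 lines, in which the 8 arrays share 4 group means, and nothing more follows from it.

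Some markers of other cell types also differed between the groups. Of 9 listed genes of mature pollen, 5 have a named probe set, 3 of them only through the study's lists. In 35S::IaTCP1, 4 of the 5 fell, beside 2.35% of all probe sets, and in 35S::TCP1 3 fell, beside 1.25%. In 35S::CYC 1 rose, beside 1.53%, and none fell. The one that rose was *TUA1*, with 1.07 in 35S::CYC (adjusted p = 3.4e-05), and it was also 0.86 higher in 35S::IaTCP1 (adjusted p = 2.02e-04) and 0.78 higher in 35S::TCP1 (adjusted p = 6.47e-04, limma) than with the empty vector, against the direction of the other pollen genes there. The 3 markers from the study's lists are named because they changed on these arrays. Neither the count of markers that fell nor their direction is thus independent evidence. Of the pair named by the platform, *TUA1* rose, as given, and *LAT52* fell. *LAT52* differed by -2.48 in 35S::IaTCP1 and -1.33 in 35S::TCP1 (adjusted p = 3.02e-09 and 1.04e-06, limma). Summed over the 5 probe sets on the linear scale, the intensity was 3625 to 3666 in 35S::CYC, 1222 to 1267 in 35S::IaTCP1, and 1941 to 1958 in 35S::TCP1, against 3654 to 3755 with the empty vector. *CPK24* lay below the lower quartile of the probe sets on the 4 arrays of 35S::IaTCP1 and 35S::TCP1, and the other 4 lay above it on all arrays. Of 6 seed genes only *OLEO3* is named, at 9.77 ± 0.09 in 35S::CYC, 6.77 ± 0.01 in 35S::IaTCP1, 6.45 ± 0.13 in 35S::TCP1 and 5.97 ± 0.17 with the empty vector (SD, n = 2 each), the same order as *XTH15*. *AP1*, named only through the study's lists, fell in 35S::CYC with -1.40 (standard error 0.09), beside 1.55% of all probe sets that fell there. Of 7 genes of green tissue *RCA* and *PORB* are named, and their summed intensity was 9124 to 9323 in 35S::CYC, 8363 to 8986 in 35S::IaTCP1, 8315 to 8834 in 35S::TCP1 and 9180 to 10000 with the empty vector. *RCA* makes up most of that sum. *PORB*, an enzyme of chlorophyll synthesis, fell in 35S::IaTCP1 with -1.17 (adjusted p = 4.94e-06), and differed by -0.61 in 35S::TCP1 (adjusted p = 0.0016) and -0.43 in 35S::CYC (adjusted p = 0.0122, limma). The part of such cell types in the levels of the XTH genes was not tested.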

How the data were processed

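RNA of inflorescences was hybridized to 8 Affymetrix ATH1 arrays, 2 for each of 4 groups. The authors normalized them by RMA (per the labels also Partek, versions not given in the sources used here) and deposited the result as log2 values, with 1 for every probe set on each array. RMA sets the arrays to a common distribution, so a shift of all transcripts would not be seen, and it compresses changes of dim probe sets. These values were used as deposited, after 64 hybridization controls were left out.

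One mean per group was fitted with limma 3.58.1 under R 4.3.3, which left 4 residual degrees of freedom. To pass, a probe set had to differ at least 2-fold with a p of at most 0.05, adjusted by Benjamini and Hochberg's method over 22746 probe sets within a comparison. The script was tested on simulated data. The annotation of the platform gives a single gene for 13513 probe sets and several for 503. Another 428 were named only through the study's lists of changed genes, whose fold changes and p-values were not used. Symbols and gene order were taken from RefSeq (TAIR10.1).

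The 4 genes and the gene lists were chosen with earlier results of these data known. Named are the 4 genes, all XTH genes with a named probe set, genes of the xyloglucan and touch lists that passed or, of the rest, differed most, tissue markers, and the 5 transcripts most like each of the 4 genes. *CML23* was added after its values were seen. Alternatives were a replicate block, cyclic loess, a minimum mean of 5, an intensity trend, fits of only the groups compared, unadjusted p-values and leaving out each array. Plots were made in matplotlib 3.10.9 (Python 3.11.15).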

Additional observations from a re-analysis of the deposited data

Results flagged for a closer look

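*XTH19* lay above the controls on both 35S::CYC arrays and below them on both arrays of each crucifer gene, which put 2.50 on the log2 scale between 35S::CYC and 35S::IaTCP1 and 2.20 between 35S::CYC and 35S::TCP1. *TCH4* lay above the controls in 35S::CYC and 35S::IaTCP1 and marginally below them in 35S::TCP1, with differences of 4.70 and 1.11 from 35S::TCP1, of which the part below the controls was only -0.12. *XTH30* lay above the controls in 35S::CYC and just below them in 35S::IaTCP1, with 1.43 between these lines. Of this, the part below the controls was only -0.34 (standard error 0.13), and the nearest 35S::IaTCP1 and control arrays both read 6.15 after rounding. All of these genes had been chosen by or named for their levels on these arrays, so the differences between the lines are given as a description with no p-value.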

How the results depend on the processing

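The count of other XTH genes past both limits in 35S::CYC was 1 after cyclic loess and ranged from 0 to 1 when single arrays were left out, in each case through *XTH27*. In the other 5 comparisons it remained 0 under all alternatives run, with *XTH19* set apart as before. Without 1 array, *XTH7* in 35S::TCP1 ranged from -1.91 to -1.46 and *XTH15* in 35S::IaTCP1 from 0.95 to 1.06. The other differences of the 4 genes from the empty vector moved by less than the spread of replicates. With 2 arrays per group, the shift on leaving 1 out is set by the gap between them, so this is no separate check. The replicate numbers are shared between groups without a stated pairing, and the deviations of equal numbers correlated at 0.164 to 0.516 between groups. With the replicate number as a block, the count of other XTH genes stayed at 0 in every comparison, *TCH4* in 35S::CYC stayed at 4.58, and all probe sets gave 700, 757 and 437 calls for 35S::CYC, 35S::IaTCP1 and 35S::TCP1. A lone array left in a group was taken to vary like the others. Only 3 of the 9 other XTH genes had a mean of 5 or more, and changes of the dimmer ones can be missed.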
